A study of Homo sapiens with 6 samples.

Results

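The SELENO genes are 10 human selenoprotein genes with this name root, SELENOF, SELENOH, SELENOI, SELENOK, SELENOM, SELENON, SELENOO, SELENOS, SELENOT and SELENOW, among 18132 genes measured in DLD1 cells. They were chosen from the CDKL1 shRNA against control shRNA contrast itself: SELENOM ranked 10 by size among all rises there, and the other members were taken up by name. Their values in that contrast, and the counts of members past the threshold set over all genes, are therefore a description of what led to the choice. They are no independent test of the family and support nothing. The 10 genes were read by 19 of 44988 probe sets with 1 gene symbol, and the brightest probe set of each gene is its main value. DLD1 is an established line of human colorectal adenocarcinoma. It was infected with lentivirus that expressed either a short hairpin RNA (shRNA) against CDKL1, a cyclin-dependent kinase-like kinase, or a control shRNA, so both groups carried a lentivirus and a hairpin. Each group held 3 samples, each read on 1 Affymetrix array as log2 values normalised by RMA. The genes SELENOP and SELENOV share the name root but are no members, and stand below among the other selenoprotein genes. The labels give no hairpin sequence, viral dose or time after infection.

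Selenoproteins contain selenocysteine, an amino acid that resembles cysteine with selenium in place of sulphur. It is inserted at a UGA codon, which otherwise stops translation, when a stem-loop in the transcript called SECIS recruits a dedicated elongation factor and a selenocysteine tRNA. Several SELENO proteins have a thioredoxin-like fold with selenocysteine at the redox site (SELENOF, SELENOH, SELENOM, SELENOT, SELENOW). Many of the family reside in the endoplasmic reticulum (ER), in its lumen (SELENOF, SELENOM) or its membrane (SELENOK, SELENON, SELENOS, SELENOT), and the intestinal epithelium also relies on the selenoprotein peroxidases GPX1 and GPX2.

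Of the series as a whole, 3040 of 18132 genes were called at a limma adjusted p (Benjamini-Hochberg) under 0.05, that is 16.8% of genes, with 8.97% higher and 7.79% lower in CDKL1 shRNA arrays. That balance turned with further quantile normalisation, where 1541 genes were higher and 1690 lower. The probe set of the targeted gene CDKL1 was near the background controls, with mean levels of 4.37 in control and 4.17 in CDKL1 shRNA arrays, and did not pass (limma, adjusted p = 0.219; exact permutation p = 0.3, the smallest possible being 0.1), so it could not check the knockdown. Background controls with 10 to 16 G or C bases had mean levels of 2.97 to 4.92. As a sign of RNA quality, the 3' control probe set of ACTB exceeded the 5' one on the log2 scale. The excess was 1.40 ± 0.013 in control and 1.60 ± 0.115 in CDKL1 shRNA arrays (SD, 3 arrays each). The groups did not overlap, and the exact two-sided permutation p = 0.1 was the smallest possible. The highest value, 1.73, was in CDKL1 shRNA replicate 2. For GAPDH the groups did not overlap either, at 0.203 ± 0.018 in control and 0.275 ± 0.026 in CDKL1 shRNA arrays (exact two-sided permutation p = 0.1). The part of RNA quality in the results below was not tested beyond the fit that carries the ACTB value as a covariate. That value follows the groups, so this fit cannot separate it from the group. Its SEs are larger, such as 0.10 against 0.05 for SELENOM. Some estimates moved too, such as SELENOS from 0.49 to 0.35 and VIL1 from -0.57 to -0.16, while SELENOM went from 1.25 to 1.22. A call kept or lost in this fit therefore decides nothing about RNA quality. The epithelial markers EPCAM, KRT8, KRT18, KRT19 and CDH1 lay at control levels of 12.73 to 14.32. CDX2 lay at 10.67, KRT20 at 10.30 and CDH17 at 10.01, and VIL1 and LGALS4 lay low, at 5.85 and 5.36. Of the 10 epithelial markers, KRT20 rose by 0.52 (SE 0.05, limma adjusted p = 0.000746), VIL1 fell by 0.57 (SE 0.12, limma adjusted p = 0.019) and 8 did not pass by their brightest probe sets. Among those 8, all 4 CDH17 probe sets rose and 3 passed limma over all probe sets. All 8 KRT8 probe sets fell, and 1 passed there. VIL1 no longer passed when control replicate 1 (limma adjusted p = 0.0639) or control replicate 3 (adjusted p = 0.0601) was left out. With the ACTB covariate neither call held, with VIL1 at -0.16 (limma adjusted p = 0.507) and KRT20 at 0.49 (adjusted p = 0.0651). The 11 measured markers of fibroblasts, leukocytes and endothelium had control levels of 3.62 to 6.75 by their brightest probe sets. Of these, 0 passed the limma test or had an unadjusted p under 0.05. Over all probe sets, 1 of 6 for COL1A2 passed, as lower.

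The promoters of the members were examined for sequence that the choice of genes did not use. RefSeq promoter windows (GRCh38.p14, 250 bases before to 50 after the gene start) were given for 8 of the 10 members, all but SELENOM and SELENOO. Windows are shown for the 4 members past the limma threshold that have one: SELENOS (chr15:101277436-101277735, minus strand), SELENOH (chr11:57741241-57741540, plus strand), SELENOI (chr2:26345893-26346192, plus strand) and SELENOW (chr19:47778453-47778752, plus strand). Each is written 5′ to 3′ on the strand of its gene, and capitals mark CCAAT and CCACG, the flanks of the ER stress response element, on either strand.
SELENOS: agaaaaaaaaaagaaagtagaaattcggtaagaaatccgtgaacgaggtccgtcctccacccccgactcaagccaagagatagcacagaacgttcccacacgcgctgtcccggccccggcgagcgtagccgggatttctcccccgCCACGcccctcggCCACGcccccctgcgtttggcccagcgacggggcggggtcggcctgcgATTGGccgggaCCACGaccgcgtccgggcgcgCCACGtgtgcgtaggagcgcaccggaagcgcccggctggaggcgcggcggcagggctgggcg
SELENOH: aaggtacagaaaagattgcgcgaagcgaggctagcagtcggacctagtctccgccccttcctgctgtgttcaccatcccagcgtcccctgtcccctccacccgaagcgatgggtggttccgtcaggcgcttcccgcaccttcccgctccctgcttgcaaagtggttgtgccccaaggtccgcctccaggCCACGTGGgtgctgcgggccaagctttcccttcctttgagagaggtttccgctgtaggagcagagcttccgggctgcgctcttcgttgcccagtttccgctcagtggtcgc
SELENOI: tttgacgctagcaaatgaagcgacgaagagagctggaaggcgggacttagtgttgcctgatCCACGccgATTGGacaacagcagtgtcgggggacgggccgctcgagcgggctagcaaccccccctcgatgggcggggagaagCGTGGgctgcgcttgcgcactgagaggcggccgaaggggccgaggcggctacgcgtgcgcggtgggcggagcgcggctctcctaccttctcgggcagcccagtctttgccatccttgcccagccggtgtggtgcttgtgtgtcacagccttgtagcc
SELENOW: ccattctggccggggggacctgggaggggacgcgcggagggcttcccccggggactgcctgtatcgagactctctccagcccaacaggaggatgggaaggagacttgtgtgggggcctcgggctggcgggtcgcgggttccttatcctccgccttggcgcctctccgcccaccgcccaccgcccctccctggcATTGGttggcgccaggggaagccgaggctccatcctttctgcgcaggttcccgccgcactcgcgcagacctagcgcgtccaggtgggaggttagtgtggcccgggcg
The whole ER stress response element, CCAAT and CCACG with a gap of 9 bases, was in 0 of the 8 members' windows and in 0.0769% of all 35116 windows. Its second form, ATTGG and CCACG with a gap of 1 base, was in 0 of the 8 and in 0.0541% of all windows. The SELENOS window held 4 copies of CCACG, a count reached by 0.937% of all windows and singled out after the sequence was seen. That window was 68.3% G or C, against a median of 58.7% over all windows, and the share was not matched for base composition. At least 1 CCACG was in 38.1% of windows and at least 1 CCAAT in 34.6%. The core of the antioxidant response element, TGAC and GC with a gap of 3 bases, was in the windows of SELENOK and SELENON and in 13.3% of all windows. A match is a description of these letters and no evidence of binding.

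By their brightest probe sets, 5 of the 10 SELENO genes passed the limma threshold, against 16.8% of all genes: SELENOM and SELENOS were higher and SELENOH, SELENOI and SELENOW lower in CDKL1 shRNA arrays. The other 5 did not pass, but SELENOF and SELENOK did in 2 of the 14 alternative fits, those with an intensity trend and robust prior and among genes above the median level. SELENOM stood apart in size, at 2.37-fold, while the remaining 9 members lay within 1.05-fold and 1.40-fold of control in either direction. The groups did not overlap for 8 members, against 35.7% of all genes. In 5 of them the CDKL1 shRNA arrays were the higher ones and in 3 the lower. The median log2 change of the members was -0.025, beside -0.014 over all genes, with 5 members positive and 5 negative. Since the same contrast led to the choice of the family, these counts describe it only.

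**Figure D1:**
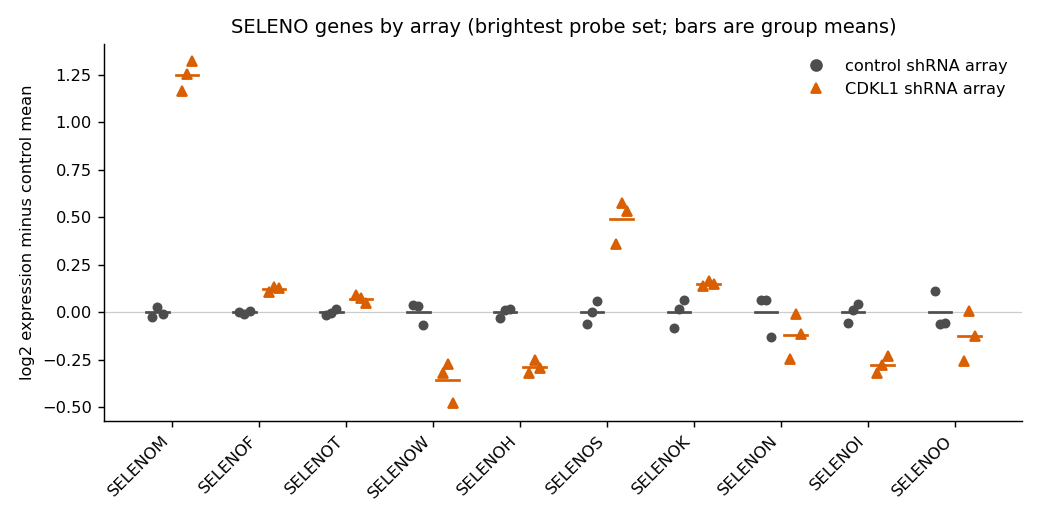
Log2 expression of each SELENO gene on each array, minus the mean of the control arrays, from its brightest probe set. Circles are the 3 control shRNA arrays, triangles the 3 CDKL1 shRNA arrays and bars the group means. SELENOM and SELENOS sit highest above control, SELENOW, SELENOH and SELENOI lie below it, and the groups overlap for SELENON and SELENOO.

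Of the thioredoxin-like members of the ER lumen, SELENOM was the one with the large difference. SELENOM, an ER oxidoreductase related to SELENOF, read 7.22, 7.28 and 7.24 in control replicates 1 to 3 and 8.41, 8.50 and 8.57 in CDKL1 shRNA replicates 1 to 3. The lowest CDKL1 shRNA array was thus above the highest control array. The log2 difference was 1.25 with an SE of 0.05 and a 95% interval from 1.12 to 1.37. SELENOM has 1 probe set, so no other probe set on the array could check the value, and its level lay at percentile 56.9 of all gene means. SELENOF, which binds the glycoprotein folding sensor UGGT, read 12.27, 12.26 and 12.28 in control and 12.37, 12.40 and 12.39 in CDKL1 shRNA arrays. These groups did not overlap either, but the log2 difference was 0.12 (SE 0.04), or 1.09-fold, and SELENOF did not pass the threshold. Its second probe set gave the same 0.12.

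Among the remaining thioredoxin-like members, the small cytosolic SELENOW and the nuclear SELENOH were lower, and the ER-membrane SELENOT was close to control. SELENOW, whose transcript is known to be sensitive to selenium supply, read 8.59, 8.59 and 8.48 in control and 8.23, 8.28 and 8.08 in CDKL1 shRNA arrays. The highest CDKL1 shRNA array lay below the lowest control array, and the log2 difference was -0.36 (SE 0.07), 1.28-fold lower, from its only probe set. SELENOH, a redox protein of the nucleus and nucleolus, read 11.77, 11.81 and 11.81 in control and 11.48, 11.55 and 11.50 in CDKL1 shRNA arrays. The log2 difference was -0.29 (SE 0.04), 1.22-fold lower, and its second probe set gave -0.23. Both SELENOH probe sets have suffixes, _s and _x, that mark possible binding to other transcripts. SELENOT, anchored in the ER membrane, read 11.10, 11.11 and 11.13 in control and 11.21, 11.19 and 11.17 in CDKL1 shRNA arrays. The groups did not overlap, yet the log2 difference was 0.072 (SE 0.04), and the other 3 SELENOT probe sets, at 0.034 to 0.088, overlapped between groups. The brightest SELENOT probe set has an _s suffix.

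The pair of single-pass ER-membrane proteins, SELENOS and SELENOK, differed in size of change. SELENOS binds the derlins and brings the VCP ATPase to the ER membrane in ER-associated degradation, the route by which misfolded proteins are taken out of the ER. It read 10.62, 10.68 and 10.74 in control and 11.04, 11.26 and 11.21 in CDKL1 shRNA arrays. The log2 difference was 0.49 (SE 0.07), or 1.40-fold, without overlap, and CDKL1 shRNA replicate 1 was the lowest of its group. The second SELENOS probe set, dimmer at a control mean of 6.80, gave 0.26 with overlapping groups. SELENOK, the partner of the palmitoyltransferase ZDHHC6, read 11.50, 11.60 and 11.64 in control and 11.72, 11.74 and 11.73 in CDKL1 shRNA arrays. Its log2 difference was 0.15 (SE 0.05), 1.11-fold, which did not pass although the groups did not overlap, and its second probe set gave 0.13.

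**Figure D2:**
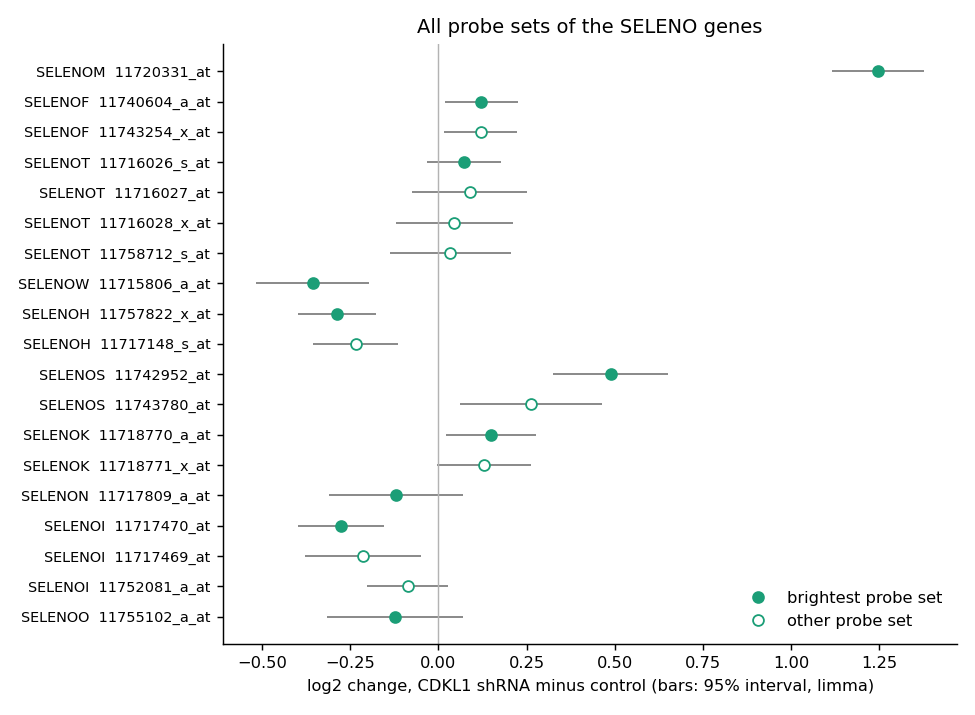
Log2 change of all 19 probe sets of the SELENO genes, CDKL1 shRNA minus control, with 95% intervals from limma over all probe sets. Filled circles are the brightest probe set of a gene and open circles the others. All 9 open circles lie on the same side of 0 as the filled circle of their gene.

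The remaining 3 members have unlike roles. SELENOI is the ethanolaminephosphotransferase that ends the synthesis of phosphatidylethanolamine in the Kennedy pathway. It read 10.34, 10.41 and 10.44 in control and 10.08, 10.12 and 10.16 in CDKL1 shRNA arrays, all below control. The log2 difference was -0.28 (SE 0.05), 1.21-fold lower, and its other 2 probe sets gave -0.21 and -0.087, also without overlap. SELENON, an ER protein linked to calcium handling and to inherited myopathy, read 6.63, 6.63 and 6.44 in control and 6.32, 6.56 and 6.45 in CDKL1 shRNA arrays. SELENOO, a mitochondrial pseudokinase that attaches AMP to proteins, read 8.53, 8.36 and 8.36 in control and 8.16, 8.42 and 8.29 in CDKL1 shRNA arrays. The groups overlapped for both genes, and their log2 differences, -0.12 each (SE 0.08), did not pass.

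Probe sets of the same gene ran in the same direction. Of the 9 probe sets beside the brightest, all had the sign of the brightest. The groups did not overlap for 5 of the 9, against 33% of all probe sets, and 1, of SELENOH, passed limma over all probe sets, where 12.8% of probe sets passed. SELENOM, SELENON, SELENOO and SELENOW have a single probe set each. Across members, the SD within a group ran from 0.0088 (SELENOF, control) to 0.131 (SELENOO, CDKL1 shRNA).

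**Figure D3:**
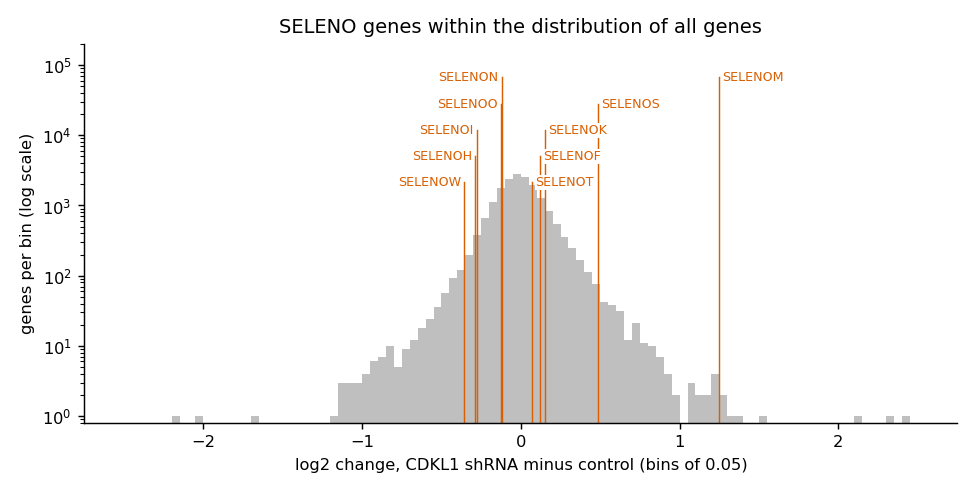
Histogram of the log2 change of all 18132 genes in bins of 0.05, with the number of genes per bin on a log axis. Vertical lines mark the 10 SELENO genes. SELENOM, at 1.25, lies in the sparse upper tail, SELENOS at 0.49 on the shoulder, and the other 8 between -0.36 and 0.15.

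The same 5 members were past the threshold in each of the 6 fits with 1 array left out, where 1633 to 2399 of all 18132 genes passed. This describes how far the members' values rest on 1 array. These fits reuse the contrast that led to the choice of the family and are no independent check. With the ACTB value of RNA quality in the fit as a covariate, 1 member passed, SELENOM, at 1.22 (SE 0.10), of 219 genes passing overall. In that fit SELENOS was at 0.35 (SE 0.11), SELENOW at -0.47 (SE 0.11), SELENOH at -0.34 (SE 0.08) and SELENOI at -0.28 (SE 0.09). SELENON and SELENOO went from -0.12 each to -0.32 and -0.33 with an SE of 0.12, and did not pass.

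**Figure D4:**
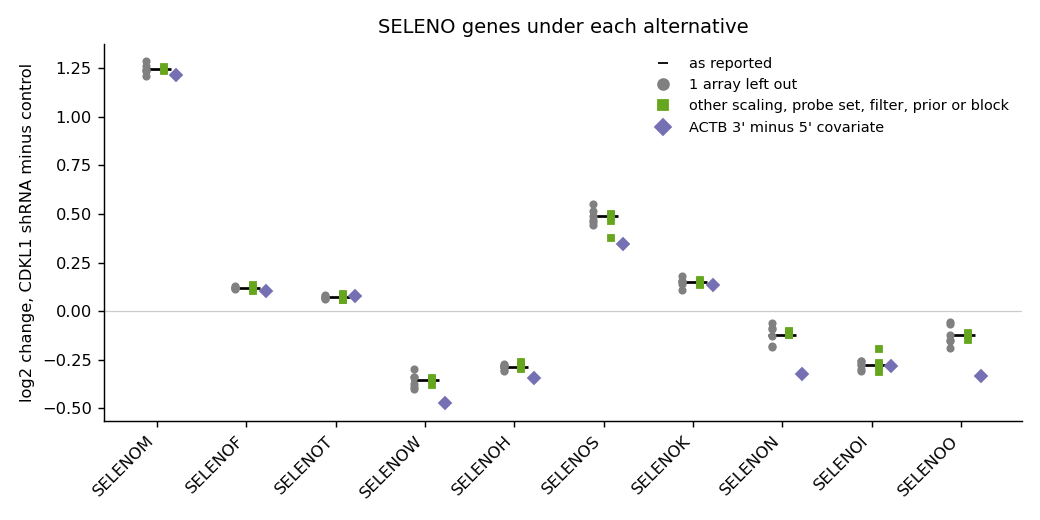
Log2 change of each SELENO gene as reported (black bar) and under each alternative. Grey circles are fits with 1 array left out, green squares other scaling, probe set, filter, prior or replicate block, and diamonds the fit with the ACTB 3' minus 5' covariate. No member changes sign, and the diamonds of SELENON, SELENOO, SELENOW and SELENOS stand farthest from the reported value.

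Of the 15 other selenoprotein genes on the list, 14 were measured by a probe set of 1 symbol, TXNRD3 not among them. Of these 14, 1 rose, 2 fell and 11 did not pass, beside 16.8% of all genes called. SELENOP, the secreted protein that carries selenium between tissues, read 8.23, 8.17 and 8.18 in control and 7.85, 7.79 and 7.90 in CDKL1 shRNA arrays. It fell by 0.35 on the log2 scale (SE 0.05, limma adjusted p = 0.00353), and both of its probe sets fell. The brightest SELENOP probe set has an _x suffix. Without _s and _x probe sets the log2 change of SELENOP was -0.24 (SE 0.06, limma adjusted p = 0.0423). GPX1, the cytosolic glutathione peroxidase, fell by 0.23 (SE 0.04, limma adjusted p = 0.01), also in both probe sets. Both have an _s or _x suffix, which marks possible binding to other transcripts. TXNRD1, the cytosolic thioredoxin reductase, rose by 0.21 (SE 0.04, limma adjusted p = 0.0169) in its brightest probe set, which has an _s suffix, and by 0.48 and 0.49 in the others. TXNRD1 lost its call without either of control replicates 2 and 3 or CDKL1 shRNA replicates 1 and 3 (limma adjusted p = 0.0632, adjusted p = 0.0556, adjusted p = 0.0534 and adjusted p = 0.0689). GPX4, which reduces lipid hydroperoxides, was at -0.13 (SE 0.05) and did not pass, and the methionine sulphoxide reductase MSRB1 was at 0.0090 (SE 0.04). SELENOV lay within the background range at 4.30 in control arrays. None of the 3 calls held with the ACTB covariate, where 4 of the 14 had an unadjusted p under 0.05 (limma).

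Of the 16 genes that make, charge or read selenocysteine tRNA or supply selenium, 2 rose, 2 fell and 12 did not pass. Among all genes 16.8% were called. PSTK, the kinase that phosphorylates seryl-tRNA on the way to selenocysteine, rose by 0.42 (SE 0.05, limma adjusted p = 0.00208), from 8.71, 8.71 and 8.64 to 9.10, 9.05 and 9.17, and its 3 probe sets each rose. LRP8, a receptor that takes up SELENOP, fell by 0.40 (SE 0.04, limma adjusted p = 0.00138), from 9.28, 9.36 and 9.33 to 8.93, 8.94 and 8.91, in both probe sets. The groups of both genes were wide apart relative to their spread. TRNAU1AP, a binding protein of selenocysteine tRNA, rose by 0.24 (SE 0.06) and EEFSEC, the selenocysteine elongation factor, fell by 0.16 (SE 0.04), each with a limma adjusted p = 0.0447. The EEFSEC call was lost with any 1 array left out, and that of TRNAU1AP in 5 of the 6 such fits. SECISBP2, which binds the SECIS element, was at -0.017 (SE 0.08), and SEPSECS, the selenocysteine synthase, at -0.18 (SE 0.05, limma adjusted p = 0.0511), with its other 2 probe sets at 0.0056 and 0.11. SECISBP2L was at -0.029 by its brightest probe set and did not pass. Its 3 probe sets ran from -0.029 to 0.47, and 1 passed limma over all probe sets. None of the 4 calls held with the ACTB covariate, a fit with larger SEs. There PSTK was at 0.48 (SE 0.09, limma adjusted p = 0.0721) and LRP8 at -0.42 (SE 0.08, limma adjusted p = 0.0758). In that fit 2 of the 16 had an unadjusted p under 0.05 (limma).

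Of 24 genes whose products work with SELENO proteins, 8 rose, 2 fell and 14 did not pass, beside 16.8% of all genes called. The ER-associated degradation genes around SELENOS and SELENOK gave 5 rises and 1 fall among 11, beside 16.8% of all genes called, with a median log2 change of 0.14 beside -0.014 over all genes. None of these calls held with the ACTB covariate. The derlin genes DERL1 and DERL2, which encode the membrane proteins that SELENOS binds, rose by 0.35 (SE 0.04) and 0.29 (SE 0.05), with limma adjusted p = 0.00286 and adjusted p = 0.0127. DERL1 went from 10.12, 10.16 and 10.21 to 10.48, 10.54 and 10.51, and its 3 probe sets all rose. SYVN1, the ubiquitin ligase of this route, rose by 0.33 (SE 0.05, limma adjusted p = 0.00402), though its second, dimmer probe set was at -0.00038. ZDHHC6 rose by 0.25 (SE 0.06) and AUP1 by 0.22 (SE 0.05), while SEL1L, the adaptor of SYVN1, fell by 0.23 (SE 0.04). The remaining probe sets of AUP1 and SEL1L had the opposite sign, and neither gene passed when its probe sets were averaged (limma adjusted p = 0.741 and adjusted p = 0.773). The VCP ATPase was at -0.060 (SE 0.05) and did not pass. ZDHHC6 lost its call in 5 of the 6 fits with 1 array left out, AUP1 in 4 and DERL2 and SEL1L in 1 each, whereas DERL1 and SYVN1 kept theirs in all 6. With the ACTB covariate and its larger SEs, DERL1 was at 0.31 (SE 0.09, limma adjusted p = 0.14). DERL2 was at 0.34 (SE 0.10, limma adjusted p = 0.162) and SYVN1 at 0.27 (SE 0.09, limma adjusted p = 0.177).

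**Figure D5:**
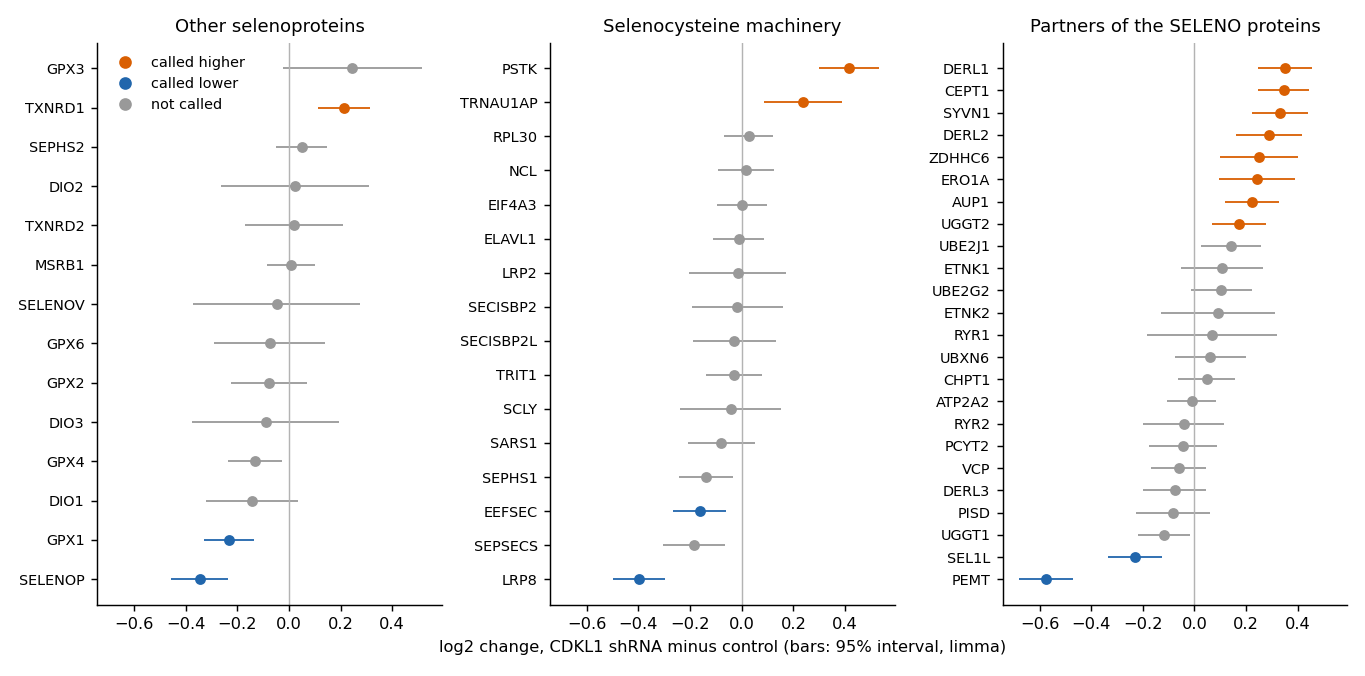
Log2 change, CDKL1 shRNA minus control, with 95% intervals from limma, of the 14 other selenoprotein genes (left), 16 genes of selenocysteine synthesis and use (middle) and 24 partner genes (right). Orange genes passed as higher, blue as lower and grey did not pass at an adjusted p of 0.05. PEMT lies lowest at -0.58 and PSTK highest at 0.42.

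Around SELENOI, 1 of 7 Kennedy pathway and related phospholipid genes rose and 1 fell, beside 16.8% of all genes called. CEPT1, which encodes a transferase that shares the ethanolamine step with SELENOI, rose by 0.35 (SE 0.04, limma adjusted p = 0.00233), from 9.34, 9.32 and 9.40 to 9.69, 9.71 and 9.70. Both CEPT1 probe sets rose. PEMT, the enzyme that methylates phosphatidylethanolamine to phosphatidylcholine, fell by 0.58 (SE 0.045, limma adjusted p = 0.000425), from 9.02, 9.02 and 9.03 to 8.41, 8.42 and 8.51. PEMT passed in all 14 alternative fits, the ACTB covariate included (limma adjusted p = 0.0471), and was the 1 partner gene that did so there. PCYT2, the enzyme that precedes SELENOI, was at -0.044 (SE 0.06). ETNK1, also on this list, was at 0.11 (SE 0.07) by its brightest probe set and did not pass. Yet all 6 ETNK1 probe sets rose, with a median of 0.28, and 3 of them passed limma over all probe sets. Of the UGGT folding sensors that SELENOF binds, UGGT2 rose by 0.17 (SE 0.04, limma adjusted p = 0.0383), with no call in any of the 6 fits with 1 array left out and a log2 change of -0.029 from the brightest probe set without an _s or _x suffix. UGGT1 was at -0.12 (SE 0.04) by its brightest probe set and did not pass. Its other 2 probe sets were at 0.18 and 0.30, and 1 of them passed limma over all probe sets. Of 4 calcium handling genes around SELENON, ERO1A, an ER oxidase, rose by 0.24 (SE 0.06, limma adjusted p = 0.038) and lost its call in 5 of the 6 fits with 1 array left out, and the calcium pump ATP2A2 was at -0.012 (SE 0.04).

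The 3 genes whose pattern over the 6 arrays was most like that of SELENOM were PGM2L1 (Pearson r = 0.9994), STT3A (r = 0.9992) and NAGK (r = 0.9992). Their log2 changes were 0.78, 0.46 and 0.57. In all, 233 genes had an r over 0.99 with SELENOM, since a difference between 2 groups of 3 arrays sets most of such a correlation, and no test goes with it.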

How the data were processed

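Per the labels' protocols, biotin-labelled cRNA from 6 ug of total RNA of each of 6 DLD1 samples was hybridised to Affymetrix arrays. The deposited table holds log2 values for 49395 probe sets, which the authors made with RMA, per the submitters' processing notes. The RMA version is not stated in these notes, and RMA understates changes of dim probe sets. Gene symbols came from the array platform's annotation (44988 with 1 symbol, 1832 with several, 2473 with none), and 102 control probe sets were left out. The brightest probe set by mean over all arrays stood for each of 18132 genes. Groups came from the sample titles. The model (limma 3.58.1, R 4.3.3, lmFit and eBayes, two-sided) had group as its term, with Benjamini-Hochberg adjustment over all genes at 0.05, and was tested on simulated data. No label says whether samples of a group came from separate infections, so p-values reflect only how these samples vary, which may be technical. The number of arrays, 3 per group, limits the precision. Named genes were the members, CDKL1, every gene of the 3 related lists past the threshold and the 3 genes most like SELENOM. Others were named for their role or their probe sets after their values were seen. Members and lists were chosen with earlier results of these data known. Alternatives were a replicate block, each array left out, further quantile normalisation, array median subtraction, the mean of probe sets, no _s or _x probe sets, only genes above the median level, an intensity trend with robust prior, and the ACTB covariate. Promoter windows came from RefSeq (GRCh38.p14). Protein sequences were not used here. Figures were made with Python 3.11.15 and matplotlib 3.10.9.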

Additional observations from a re-analysis of the deposited data

How the results depend on the processing

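No member of the family changed sign under any of the 14 alternatives. With 1 array left out, 5 members passed in each fit, and their median ran from -0.053 to 0.0024. The intensity trend with robust prior gave 7 of 10 members, with 4201 of all 18132 genes passing. The restriction to genes above the median level gave 7 of 9 members, with 3991 of 9066 genes passing. SELENOF and SELENOK were added in both. In the 6 fits with 1 array left out, 1633 to 2399 genes passed, against 3040. Other selenoprotein genes passing numbered 2 to 3, machinery genes 2 to 3 against 4, and partner genes 5 to 8 against 10. CDKL1 ran from -0.29 to -0.12 in these 6 fits, passing without control shRNA replicate 3 (limma adjusted p = 0.0489). The lowest count of all genes came without CDKL1 shRNA replicate 3, and these fits hold fewer arrays. The replicate block gave 1803 genes, 2 machinery genes and 5 partner genes. No label says whether arrays of the same replicate number belong together. Same-numbered deviations from the group means correlated at -0.029, -0.12 and 0.070, and 2 of 6 arrays correlated best with their own number. With 3 arrays per group, these values cannot settle whether the arrays are paired. Array median subtraction and the removal of _s and _x probe sets each gave 2 machinery genes. The median of the members was 0.088 without _s and _x probe sets and 0.072 among genes above the median level, where 9 members were left in each, and -0.10 with the ACTB covariate. With that covariate 219 genes passed, 1 member, 0 other selenoprotein genes, 0 machinery genes (unadjusted p under 0.05 for 4 and 2, limma) and 1 partner gene; the cause was not tested. UGGT2 turned to -0.029 without _s and _x probe sets.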
